A study of Mus musculus with 24 samples.

Results

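The 200 microRNA precursors described here run from mir-6896 to mir-7094 in the mouse series of precursor names, suffixed copies included and mir-6990, mir-7000 and mir-7033 left out, and they are called the members below. They were taken by name from the 1187 precursors of the deposited count tables. The number range uses no measured value, but no name criterion is given for leaving out the 3. The choice was made with earlier results of these data known. The counts of the 3 are given at the end of the Results. The tables cover BV2 cells, an immortalised line of mouse microglia (the resident macrophages of the brain), and the extracellular vesicles (EVs) these cells shed. Cultures were untreated controls or were kept for 72 h with lipopolysaccharide (LPS, 100 ng/mL), which activates Toll-like receptor 4, or with 50 ng/mL of either interleukin-10 (IL-10) or transforming growth factor beta (TGF-β), both cytokines that restrain inflammation. Each of the 8 groups, 4 of cells and 4 of EVs, had 3 libraries. All groups come from the 1 cell line, no genotype other than that of the line is given, and whether a group's libraries are separate cultures is not stated. The p-values therefore rest on a spread between samples that may be only technical.

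Most microRNA precursors are cut from a longer transcript by the nuclease Drosha. Mirtrons take another route: a short intron is removed by the spliceosome, its lariat is opened by the debranching enzyme, and the freed intron folds into a hairpin that Dicer can cut. In tailed mirtrons only 1 end of the hairpin is a splice site, and an exonuclease trims the rest of the intron away. A splice donor begins with GU and a splice acceptor ends with AG after a stretch of C and U, so a precursor made in this way carries those letters at its ends.

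Sequences of several of the members with the most counts are given first, because they show how closely the hairpins follow the borders of introns. They come from the RefSeq table of GRCm38.p6, written 5′ to 3′, with the seed (bases 2 to 8, which pair with target messenger RNAs) in capitals. The genes they lie in were taken from the GENCODE annotation of the same assembly.
miR-7070-5p: gUGAGGGGagcugaggcagga
miR-7070-3p: cAGGCUCUccuucccuccag
miR-7075-5p: cGGGGAGGaggacaugguuuu
miR-7075-3p: cAACCAUGucuucuuucccag
miR-7046-5p: uGUAGGGUgaggcugggagccagg
miR-7046-3p: uGAACCACccaucccccuacag
miR-7012-5p: aAGGAGAGgaguuggcagggacu
miR-7012-3p: uGACCUGUggcuccucucccag
miR-6949-5p: aAAGUGGGucuagaaagagguga
miR-6949-3p: uUCCCCUUuuucuauccacag
The 3p arms of these 5 precursors end with AG and are rich in C and U, and the 5p arms are rich in G. Over the 176 member 3p arms the median content of C plus U was 72.7%, against 54.5% in the 526 3p arms of the other precursors. Over the 176 member 5p arms the median content of G was 43.75%, against 27.3% in 522.

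Whole hairpins show the difference between the tailed and the complete form. Capitals mark the letters of the splice donor at the start and of the splice acceptor at the end.
mir-7075: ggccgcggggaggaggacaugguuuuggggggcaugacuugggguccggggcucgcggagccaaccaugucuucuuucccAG
mir-7068: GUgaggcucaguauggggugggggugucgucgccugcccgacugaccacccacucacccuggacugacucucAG
mir-7018: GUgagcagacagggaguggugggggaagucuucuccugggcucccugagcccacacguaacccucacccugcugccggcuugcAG
mir-6936: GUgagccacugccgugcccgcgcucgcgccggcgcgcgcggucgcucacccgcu
mir-7075 lies at chr8:107096025-107096106 on the minus strand of GRCm38, in an intron of 97 bases of Terf2, which encodes a protein of the telomere cap. Its hairpin of 82 bases ends exactly at the acceptor and starts 15 bases after the donor, which is the tailed form. mir-7068 (chr8:72470016-72470089, minus strand) and mir-7018 (chr4:137538286-137538370, plus strand) fill their introns, of 74 bases in Cherp and 85 bases in Hspg2, the gene of the matrix proteoglycan perlecan. mir-6936 (chr11:120624823-120624876, minus strand) starts at the donor of an intron of 66 bases of Sirt7, a deacylase of the sirtuin family, and stops 12 bases before the acceptor.

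This arrangement held for nearly all members that could be placed. RefSeq gave a position for 184 of the 200, and all 184 had their centre in an intron of a gene on their own strand. Only the centre had to be intronic, and some hairpins, such as that of mir-7025, ran past the intron's border into an exon. Judged by the outer ends of the listed mature arms, 154 of them (83.7%) lay within 2 bases of the acceptor, 10 (5.4%) filled the intron from donor to acceptor within the same margin, 6 (3.3%) lay at the donor only, and 14 (7.6%) lay further inside. Of the 848 other precursors that were placed, 35 (4.1%) lay at an acceptor, 6 (0.7%) filled an intron and 323 (38.1%) lay outside genes on their strand. Judged by the ends of the hairpin, which 179 members have in the table, 156 (87.2%) lay at the acceptor only, 11 (6.1%) at both ends, 4 (2.2%) at the donor only and 8 (4.5%) at neither. The same count over 789 other hairpins gave 32 (4.1%) at the acceptor only and 5 (0.6%) at both ends. By the letters alone, 166 of 179 member hairpins (92.7%) ended with AG, against 69 of 789 other hairpins (8.7%). In contrast, 27 of 179 (15.1%) began with GU, against 49 of 789 (6.2%). The label of these precursors as rich in mirtrons therefore fits their annotated position, with the tailed form at the acceptor in the majority. Member hairpins were shorter, with a median of 66 bases against 83, and had a median GC content of 56.9% against 50.0%. The introns that held them had a median length of 479 bases, against 4980.5 bases for the 418 other precursors inside introns. These are descriptions of the annotation and do not show that a read came from a spliced intron. For 24 members the whole hairpin also lies in an exon of at least 1 annotated transcript. The deposited tables count reads per precursor and do not separate mature arms from other fragments of the same stretch.

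**Figure D1:**
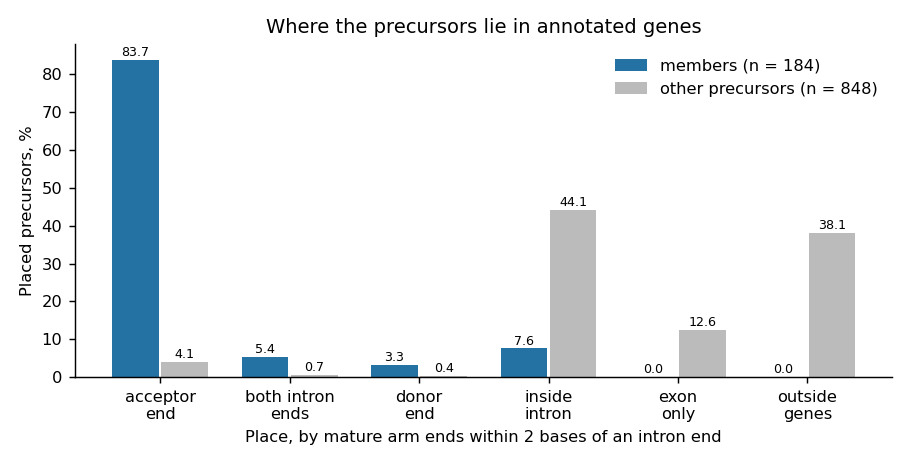
Percentage of placed precursors (vertical axis) by the place of their mature arms in annotated genes (horizontal axis), for 184 members in blue and 848 other precursors in grey. The acceptor end holds 83.7% of members and 4.1% of the others, and no member has its centre outside an intron.

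Most member seeds occurred in 1 member only. The 352 mature arms of the members in RefSeq had 321 distinct seeds, and 26 seeds occurred in at least 2 members. The 3p arms of mir-7068 and mir-7018, printed above as the ends of their hairpins, share the seed CACCCUG with miR-7023-3p.
miR-7068-3p: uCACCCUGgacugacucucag
miR-7018-3p: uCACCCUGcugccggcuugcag
The seed of miR-7075-5p also occurs in miR-7030-5p and miR-7076-5p, and that of miR-7070-5p in miR-6927-5p. mir-6967-1 and mir-6967-2 have identical arms and had the same count in all 24 libraries, 10 counts each in total. Their reads cannot be assigned to 1 copy, and both values are uncertain.

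The cell libraries were far deeper, with totals from 185400 to 409969, than the EV libraries, with totals from 15071 to 28727. Of the list for microglia and other myeloid cells, mir-142a was found in all 24 libraries. It had 465 to 1395 counts in a cell library and 5 to 76 in an EV library. mir-223 had 15 to 110 counts in cells and 0 in all 12 EV libraries. mir-146a had 312 to 10338 counts in a cell library and 0 to 103 in an EV library. mir-155 had 3 to 79 counts in a cell library and 3 over all EV libraries. Together the 4 took 0.4064% to 4.747% of the counts in cells and 0.05683% to 0.6301% in EVs. mir-6236 and mir-6240, which overlap ribosomal RNA, took 0.6785% to 2.152% of the counts in cells and 54.56% to 88.18% in EVs. Markers of other tissues differed by list. The muscle list did not pass 0.001618% of counts in a cell library and took 0.01933% to 0.1512% in an EV library (4 of 5 markers with a count, mir-133a-1 at 0). Both red cell markers were at 0 in cells, and in EVs mir-144 had 11 counts in 1 control library, 1 in an LPS library and 25 in IL-10 EV library 1, while mir-451a had 1 count in all. The liver marker mir-122 had 4 counts in cells and was at 0 in EVs. The neuron list had a median of 0.01735% in cells and 0.01162% in EVs (8 of 8 markers with a count in each, up to 0.4915% in an EV library). Over the cell libraries mir-128-1 and mir-128-2 had 312 and 298 counts, and each mir-124 and mir-9 copy had 3 to 9. The epithelium list had a median of 0.002175% in cells and 0 in EVs (4 and 3 of 6 markers with a count). The part these fragments and markers have in the EV values below was not tested. Intervals and limits below cover counting error only, since reads were amplified by PCR and carried no molecular identifiers.

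Members were found at far lower counts than other precursors. Of the 200, 155 (77.5%) had at least 1 count in the 24 libraries and 45 had none, which over 24 libraries allows a level of up to 0.789 CPM (counts per 1000000 counts of the library total). That limit pools both compartments and rests mostly on the deeper cell libraries, so it does not hold for EVs alone. A count of 0 allows 0.000732% to 0.00162% of the total in a cell library and 0.0104% to 0.0199% in an EV library. Of the 987 other precursors 737 (74.67%) had a count, and of the 276 others numbered 5000 or above 173 (62.68%). All members together had 1765 counts. Among the 155 detected, 48 had 1 or 2 counts in total, 69 had 3 to 9 and 38 had 10 or more. In cells 137 members (68.5%) were detected with a median of 3 counts over 12 libraries, whereas the 563 other precursors (57.04%) detected there had a median of 42. In EVs 88 members (44.0%) were detected, again with a median of 3 counts, against 6 for 610 others (61.8%). Of the others numbered 5000 or above, 111 (40.22%) were detected in cells with a median of 7 counts. In EVs 140 of these (50.72%) were detected with a median of 3, the same as for the members. The pooled shares thus hide opposite orders in the 2 compartments. The members shared by both compartments were 70, which is 51.09% of those in cells and 79.55% of those in EVs. Of the other precursors 563 were in cells, 610 in EVs and 737 in either. The shared part was thus larger than that of the members in cells and smaller in EVs.

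Detection was scattered over libraries. In cells 40 of the 137 detected members (29.2%) had counts in 1 library only. The share was 17.05% for the other precursors detected there and 23.42% for those of them numbered 5000 or above. Of the members, 8 were seen in 10 or more cell libraries. In EVs 52 of 88 members (59.09%) were seen in 1 library only, compared with 30.82% of the others and 43.57% of those numbered 5000 or above. Members seen in 10 or more EV libraries were 2, mir-7067 and mir-7070. Several of the EV signals came as a burst in 1 library. mir-7009, from an intron of the annexin gene Anxa5, had 9 counts in IL-10 EV library 3 and 0 in the other 23 libraries. mir-6982 had 8 counts and mir-7005 had 4, all in control EV library 1, and mir-6938 had 3, all in LPS EV library 3. Few members reached 5 counts in at least 2 libraries of a group: 2 or 3 in each cell group, against 258 to 271 other precursors, and 1 to 3 in each EV group, against 60 to 119.

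**Figure D2:**
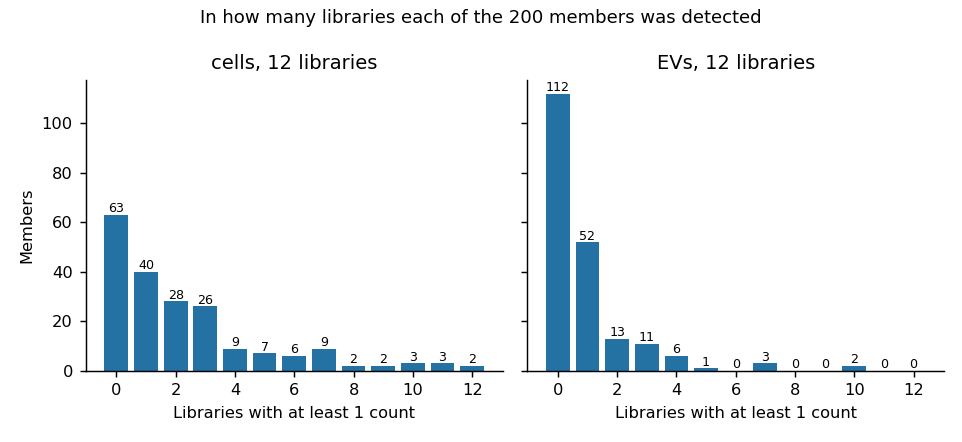
Number of members (vertical axis) by the number of libraries of a compartment in which they had at least 1 count (horizontal axis), cells on the left and EVs on the right. In cells 63 members had no count and 2 were seen in all 12 libraries, and in EVs 112 had none and the highest was 10 libraries.

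A single library held counts of 30 to 53 members in cells (median 38) and of 6 to 21 in EVs (median 15.5). Because the cell libraries were deeper, the expected number of members with a count was also computed for each library reduced to 15071 counts. It was then 3.25 to 5.28 in cells (median 4.05) and 5.94 to 20.1 in EVs (median 13.7), so that the lowest EV library lay above the highest cell library. The ranges of the other precursors overlapped, at 230 to 242 in cells (median 236) and 164 to 258 in EVs (median 214), with LPS EV library 3 above all cell libraries. This matches the library total only, of which mir-6236 and mir-6240 take a far larger part in EVs. At 1825 counts outside that pair, a depth added after the data were seen, 0.4455 to 0.79 members were expected in cells and 4.51 to 14.5 in EVs. The other precursors then numbered 123.5 to 141 in cells (median 130.5) and 126.6 to 194.7 in EVs (median 171), so that most EV libraries held more of them too. The higher number of members in EVs was found at both depths, and the order of the other precursors turned with the choice of depth. Values at equal depth are not given for the others numbered 5000 or above. Even without matching the depth, 50.72% of these were detected in EVs and 40.22% in cells. The higher number in EVs is therefore not shown to be particular to the members.

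**Figure D3:**
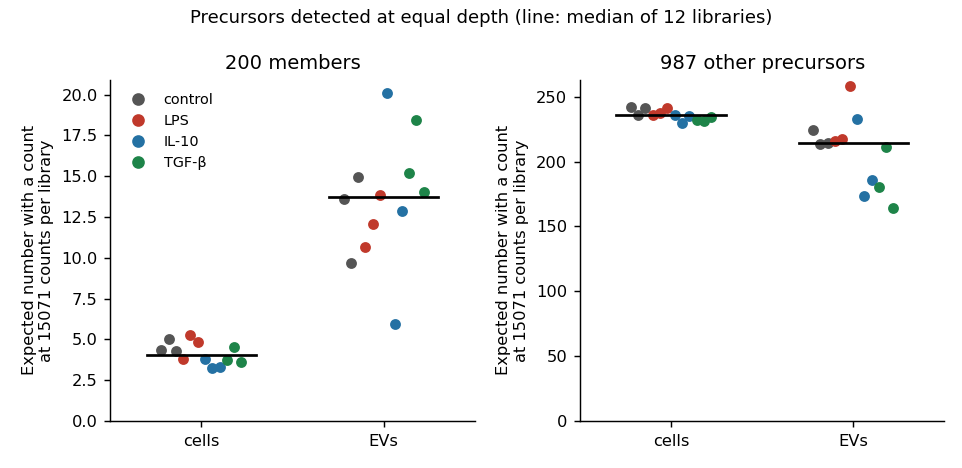
Expected number of precursors with a count at 15071 counts per library (vertical axis), for 200 members on the left and 987 other precursors on the right, with 1 point per library coloured by treatment. Members lie between 3.25 and 5.28 in cells and between 5.94 and 20.1 in EVs, while the ranges of the other precursors overlap.

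The summed share of counts showed the same order. Members took 0.0247% to 0.0451% of the counts of a cell library (median 0.0342%) and 0.0844% to 0.8125% of an EV library (median 0.236%). Every EV library lay above every cell library, the lowest EV value being 1.87 times the highest cell value, and the ratio of the medians was 6.91. Without mir-7070 and mir-7067, which were left out after the data were seen, the ranges stayed apart, at 0.0173% to 0.0313% in cells and 0.0390% to 0.350% in EVs. Taken as a share of the counts outside mir-6236 and mir-6240, the members reached 0.292% to 2.50% in EVs, against 0.0249% to 0.0460% in cells.

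By group, the cells held 0.0379 ± 0.00490% (SD, n = 3) in controls and 0.0392 ± 0.00658% with LPS. With IL-10 they held 0.0258 ± 0.00176%, and with TGF-β 0.0340 ± 0.00268%. The 3 IL-10 libraries, at 0.0247%, 0.0249% and 0.0278%, were the lowest of the 12, below the 0.0335%, 0.0432% and 0.0371% of the controls. Without mir-7067 they held 0.0219%, 0.0185% and 0.0192%, still below the 0.0252%, 0.0288% and 0.0242% of the controls. They were then no longer the lowest of the 12. TGF-β cell libraries 1 and 3, at 0.0191% and 0.01945%, and LPS cell library 1, at 0.0205%, lay below IL-10 cell library 1. The LPS and control ranges overlapped. In EVs the share was 0.219 ± 0.0441% in controls, 0.141 ± 0.0522% with LPS, 0.3845 ± 0.3805% with IL-10 and 0.299 ± 0.0636% with TGF-β. IL-10 EV library 1 stood apart, with 144 member counts of 17724 (0.8125%, exact 95% binomial interval 0.686% to 0.956%), against 0.0844% and 0.256% in the other 2. Without it the IL-10 EV mean was 0.170%. That library also held the 25 counts of mir-144 given above. No p is given for a sum over chosen members.

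**Figure D4:**
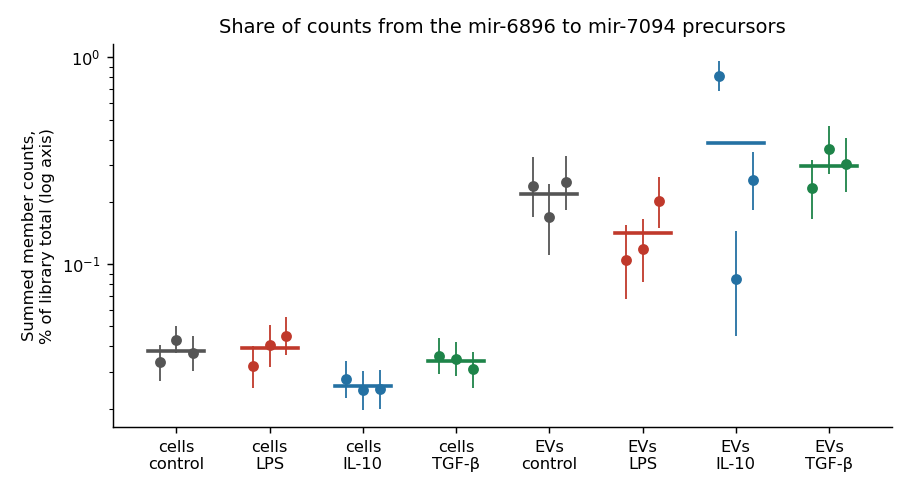
Summed member counts as a percentage of the library total (vertical axis, logarithmic) for the 8 groups (horizontal axis), with 1 point per library, its exact 95% binomial interval and the group mean as a line. The cell libraries lie between 0.0247% and 0.0451%, and the EV libraries between 0.0844% and 0.8125%, the highest being IL-10 EV library 1.

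A few members held most of these counts. The 12 with the highest mean share took 58.26% of the member counts in cells and 62.68% in EVs, and 5 members were among the 12 in both: mir-7067, mir-7070, mir-7046, mir-7012 and mir-7036a. In cells mir-7067 alone took 30.87% and led all 12 libraries. Its counts were 24, 59 and 37 in control cells, 27, 16 and 35 with LPS, 21, 21 and 20 with IL-10, and 48, 28 and 36 with TGF-β. In EVs it had 0, 3 and 2 counts in controls, 2, 9 and 12 with LPS, 15, 2 and 3 with IL-10, and 0, 13 and 3 with TGF-β. Its mean was 106 CPM of the library total in cells and 279 CPM in EVs, with EV libraries from 0 upwards on both sides of the cell values.

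mir-7075 was the other member found in all 12 cell libraries. Its hairpin in Terf2 is printed above, and its counts were 8, 11 and 9 in control cells, 6, 4 and 6 with LPS, 4, 12 and 12 with IL-10, and 4, 6 and 4 with TGF-β. Its mean level was 24.0 CPM in cells, far below that of mir-7067, and in EVs it was seen in 3 of 12 libraries. mir-7046, in an intron of 77 bases of Rabac1 (a prenylated Rab acceptor), was found in 11 cell libraries with at most 8 counts, and its mean was 13.0 CPM. Next by mean level in cells came mir-7070, mir-7068, mir-7012, mir-6936, mir-7079, mir-6953, mir-6937, mir-7036a and mir-7036b, at 9.08 down to 4.80 CPM, an order that does not hold beyond the spread between libraries. mir-7079 lies in Rpl13, which encodes a protein of the large ribosomal subunit, in an intron of 1089 bases.

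In EVs mir-7070 had the most counts of any member, 116 of 560 (20.71%). It fills an intron of 86 bases of Fbxw9, an F-box gene, at chr8:85062086-85062171 on the plus strand. Its counts were 0, 11 and 5 in control EVs, 3, 2 and 4 with LPS, 67, 5 and 6 with IL-10, and 0, 6 and 7 with TGF-β. IL-10 EV library 1 held 67 of them, 46.53% of that library's member counts. The EV mean was 554 CPM with that library and 260.5 CPM without it, and the cell mean was 9.08 CPM, from 0 to 5 counts a library. mir-7012, at the acceptor of an intron of 84 bases of Dennd4b (an activator of Rab proteins), averaged 152 CPM in EVs and 6.52 CPM in cells, with 7 of 12 EV libraries above 0.

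Some members had most of their EV counts in 1 EV group. mir-6948, in an intron of Acin1, had 6, 2 and 6 counts in the LPS EVs and 0 in the other 9 EV libraries, and 0, 3 and 0 in LPS cells. mir-6981 had 11, 0 and 7 counts in the TGF-β EVs, and elsewhere in EVs 8 in IL-10 EV library 1 and 1 in LPS EV library 2. mir-6979 had 5, 0 and 13 counts in the TGF-β EVs, and elsewhere in EVs 3 in control EV library 2, 2 in LPS EV library 3 and 2 in IL-10 EV library 3. The highest count of mir-6956, which lies in Triobp, was 11 in TGF-β EV library 2, and its only other count was 1 in a control cell library. mir-7018 was at 0 in all cell libraries and had 12 counts in 4 EV libraries, with no group holding most of them. These were 6 in IL-10 EV library 1, 2 and 3 in control EV libraries 2 and 3, and 1 in TGF-β EV library 1. Of the members in this paragraph so far, mir-6948 alone had counts in all 3 libraries of the EV group where it was high. In cells mir-7036b, inside an intron of Add1, had 0, 5 and 5 counts after LPS, 0 in the 3 controls and 0, 0 and 2 after TGF-β.

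**Figure D5:**
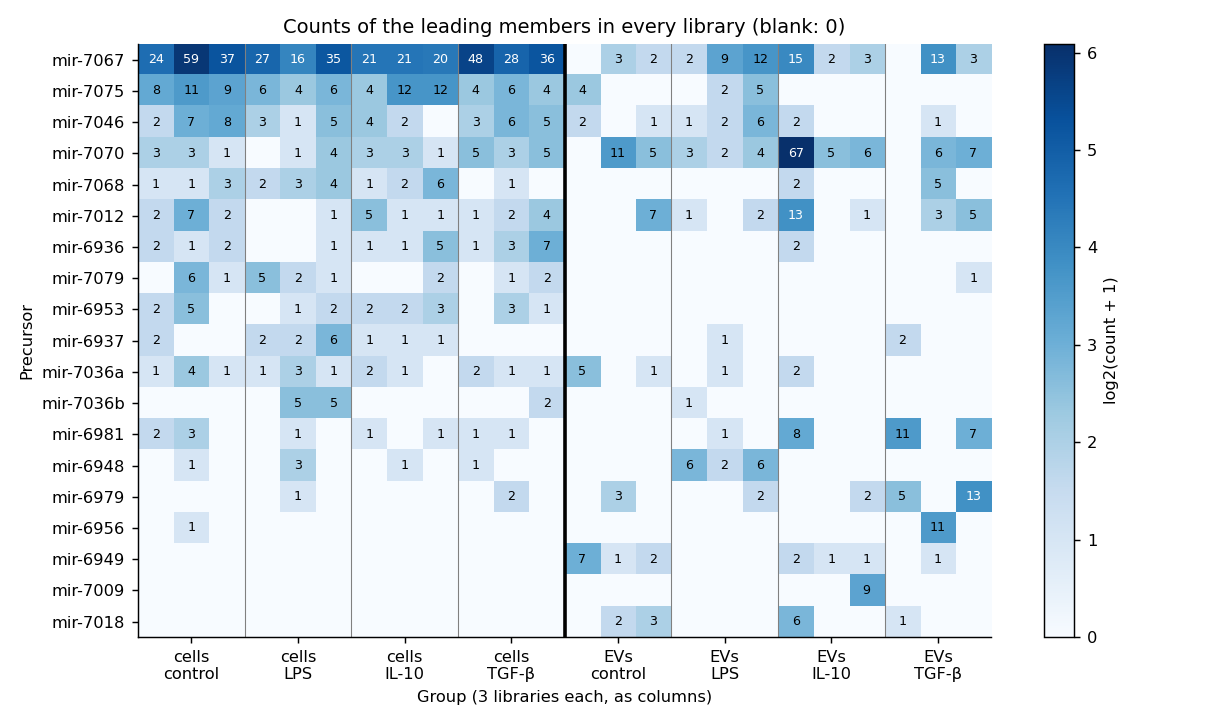
Raw counts of the 19 members that rank among the 12 highest of cells or of EVs (rows, in the order of their cell level) in the 24 libraries (columns, 3 per group), with colour as log2(count + 1) and blank squares for 0. mir-7067 runs through all 12 cell libraries, whereas the EV counts change from library to library, with 67 counts of mir-7070 in IL-10 EV library 1.

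Members with more counts tended to lie in short introns. With a limit of 100 bases, chosen after the data were seen, 42 members lay in such introns. Among placed members with 10 or more counts 16 of 35 (45.71%) had an intron this short, among those with 1 to 9 counts 16.98%, and among those at 0 18.6%.

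Treatments were compared with the control of the same compartment by edgeR's quasi-likelihood test across all precursors that passed a filter on low counts, with adjusted p-values (Benjamini-Hochberg) under 0.05 called. In cells 259 precursors were tested, and mir-7067 was the only member among them. After IL-10 it went from 118 ± 31.7 CPM of the library total (SD, n = 3) in control cells to 59.5 ± 2.28 CPM, with a log2 difference of -0.81 ± 0.32 (SE). The unadjusted p was 0.01835 and the edgeR adjusted p 0.1105, so the call was not made. As CPM of the library total the 3 IL-10 libraries, at 20 or 21 counts, lay below the 3 controls, and with TMM factors the groups overlapped. After LPS the mean was 124 ± 42.3 CPM of the library total (log2 difference 0.45 ± 0.31, edgeR adjusted p = 0.2872), and after TGF-β it was 124 ± 42.1 CPM (0.17 ± 0.29, edgeR adjusted p = 0.7185). The log2 differences rest on TMM-scaled counts. On that scale the means were 105.1 CPM in control cells, 60.66 after IL-10, 143.2 after LPS and 120.5 after TGF-β. Thus 0 members were called in each of these 3 comparisons, where 32.0% of tested precursors were called with LPS, 7.72% with IL-10 and 6.56% with TGF-β. At an unadjusted p under 0.05 there was 1, mir-7067 after IL-10, and DESeq2's Wald test on the same precursors also called 0. With library totals as the only scaling the IL-10 difference of mir-7067 was called (-1.004 ± 0.31, edgeR adjusted p = 0.04573), and over all alternatives its adjusted p ran from 0.0353 to 0.2585. In EVs 71 precursors passed the filter and no member was among them. Without a filter 88 members were tested in EVs and 0 were called with each treatment (at an unadjusted p under 0.05 there were 6 with LPS, 2 with IL-10 and 2 with TGF-β). With a minimum count of 3 in the filter 5 members were tested, and again 0 were called.

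Control EVs were compared with control cells in 1 fit over the 24 libraries. Of 280 precursors tested, 38.6% were called and 26.1% were called as higher in EVs. The 7 members tested were mir-7070, mir-6949, mir-7012, mir-6979, mir-7046, mir-7067 and mir-6981, of which 5 were called, all higher in EVs. The filter acts on CPM, so a few counts in the shallow EV libraries are enough to pass it. In the cells alone mir-7067 was the only one of the 7 to pass, so the other 6 entered through their EV counts. A member that enters this way is selected for a high EV level, so the count of 5 is not read against the background, and the differences and p-values of these 6 are given as descriptions that support nothing.

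mir-7070 had 3, 3 and 1 counts in control cells and 0, 11 and 5 in control EVs, or 7.04 ± 3.45 and 321 ± 345 CPM of the library total (SD, n = 3 each). The log2 differences of this comparison are TMM-scaled. On that scale the means were 3.275 ± 1.45 CPM in control cells and 724.2 ± 833.7 CPM in control EVs. The log2 difference was 7.52 ± 1.11 (SE, edgeR adjusted p = 4.399e-06), with 2 of 3 EV libraries above all cell libraries and the third at 0. mir-6949 lies 411 bases into an intron of 479 bases of Mcpt8, a mast cell protease gene typical of basophils, at chr14:56082401-56082468 on the minus strand. It had 7, 1 and 2 counts in control EVs and 0 in all 12 cell libraries, which allows up to 0.839 CPM over the cells. Against a floor of 3 counts over the control cells, its mean of 205 ± 206 CPM of the library total in control EVs was 67.5-fold higher. On TMM-scaled counts, not on this fold, the edgeR adjusted p was 4.2e-05. The floor bounds the cell side only, and the EV mean rests on the 7, 1 and 2 counts. mir-6949 did not pass the filter in the 6 fits that left out 1 library.

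The other 3 calls rest on fewer counts in control EVs, and those of mir-7012 and mir-6979 on 1 control EV library each. mir-7012 had 0, 0 and 7 counts in control EVs and 2, 7 and 2 in control cells (log2 5.67 ± 1.34, edgeR adjusted p = 0.00134). Without control EV library 3 its difference was -3.88 and the edgeR adjusted p 0.7807, the highest of the alternatives, the lowest being 8.623e-07 with DESeq2. mir-6979 had 0, 3 and 0 counts in control EVs and 0 in control cells (edgeR adjusted p = 0.01093), and without control EV library 2 both groups were at 0. mir-7046 had 2, 0 and 1 counts in control EVs and 2, 7 and 8 in control cells (3.88 ± 1.42, edgeR adjusted p = 0.03238), and it was called in 1 of the 3 fits that left out a library and tested it. Without control EV library 1 its edgeR adjusted p was 0.392, and without control EV library 3 it was 0.105, and the lowest of the alternatives was 3.108e-06 with DESeq2. mir-7067 was not called (1.89 ± 1.10, edgeR adjusted p = 0.1648), and its direction turned with the scaling: by library totals alone the difference was -0.25, the means being 118 ± 31.7 CPM in control cells and 99.3 ± 94.1 CPM in control EVs. mir-6981, at 0 in the control EVs, was not called either (edgeR adjusted p = 0.8635). Scaling matters for this whole comparison. The median log2 difference of all 280 precursors was -0.54 with the main scaling and -2.68 by library totals alone, and 67.59% and 24.44% of the called precursors were higher in EVs.

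The difference between the treatment effects in EVs and in cells was tested for the same 7 members. For LPS, IL-10 and TGF-β 0 of 7 were called by edgeR. At an unadjusted p under 0.05 there were 0, 2 and 1. For IL-10 these were mir-7067 (log2 difference of the effects 2.88 ± 1.03, edgeR adjusted p = 0.2789) and mir-6981 (edgeR adjusted p = 0.3746), and for TGF-β mir-6981 (edgeR adjusted p = 0.1985). The values of mir-6981 are again a description, since it passed the filter through its EV counts. DESeq2's Wald test called 1, mir-7067 for IL-10 (2.97 ± 0.93, DESeq2 adjusted p = 0.04817), and over the alternatives its adjusted p reached 0.7438, without IL-10 EV library 1.

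Other precursors made by splicing or without Drosha give a scale for these levels. Of 7 mirtrons outside the number range, mir-877 had 62 to 174 counts in every cell library and 1 to 45 in the EVs, and in 6 of the 12 cell libraries it alone had more counts than all 200 members together. mir-702 had 2 to 24 in cells. In cells 4 of the 7 were tested, and after LPS mir-702 was called as lower (log2 -1.55 ± 0.53, edgeR adjusted p = 0.02896) and the other 3 were not called. With either cytokine 0 of 4 were called. In control EVs against control cells 2 were tested, and mir-877 was called as higher in EVs (2.72 ± 0.69, edgeR adjusted p = 0.002543). Of its 33 counts in control EVs 29 lay in 1 library. The groups overlapped, at 1588 ± 2361 CPM in control EVs and 219.6 ± 3.458 CPM in control cells (TMM-scaled, SD, n = 3 each). mir-320, whose precursor is capped and bypasses Drosha, rose after LPS in cells (3.07 ± 0.18, edgeR adjusted p = 2.973e-12) and in EVs (4.91 ± 1.08, edgeR adjusted p = 0.01029). The other capped precursor listed, mir-484, was not called after LPS in cells, with 176 ± 21.2 CPM (TMM-scaled, SD, n = 3) against 266.5 ± 34.7 CPM in controls, groups that did not overlap (-0.60 ± 0.23, edgeR adjusted p = 0.05335). The 3 numbers that were left out had 64 EV and 0 cell counts for mir-6990, 270 and 4 for mir-7000, and 70 and 154 for mir-7033.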

How the data were processed

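Small RNA libraries of BV2 cells and their EVs were made with the SMARTer kit and 18 cycles of PCR, per the labels' protocols. The deposited values are whole, unnormalised counts of reads per precursor. Aligner, annotation and build: not given in the sources used here. DESeq2 is the tool that the submitters' processing notes list, with no version. Of the 8 deposited count files, 6 entered the tests and the other 2 repeat used ones. Control columns were used once. Tests used edgeR 4.0.16 (limma 3.58.1, R 4.3.3) with TMM factors and filterByExpr at a minimum count of 10, over 12 libraries per compartment or all 24, fitted on every precursor. DESeq2 1.42.0 was an alternative. The procedure was also run on simulated counts with the same dispersion for all precursors. That run does not cover members whose counts lie mostly in 1 library. Intervals are exact binomial. Positions and sequences come from RefSeq tables of GRCm38.p6 and GENCODE M21 introns. The place and sequence of mir-7067 are not reported here.

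Members, lists and tests were chosen with earlier results of these data known. Named precursors were the 12 highest by mean share in each compartment, every member tested or called, up to 4 members seen in 1 library only, and fixed lists of other mirtrons, capped precursors and tissue markers.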

Additional observations from a re-analysis of the deposited data

Results flagged for a closer look

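For the summed share, all 3 TGF-β cell libraries lay below the mean of the control cells and all 3 TGF-β EV libraries above the mean of the control EVs. The differences of the means were -0.00394 percentage points in cells and 0.0803 percentage points in EVs. For mir-7067 after IL-10, all 3 cell libraries lay below and all 3 EV libraries above the control mean of their compartment, with differences of -58.8 CPM in cells and 290 CPM in EVs. These opposite directions were not tested for the sum, and for mir-7067 edgeR's test of the difference gave an adjusted p of 0.2789. The EV mean of mir-7067 rests on 15 counts in IL-10 EV library 1, and the other 2 libraries held 2 and 3 counts.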

How the results depend on the processing

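Depth limits most of these values, since 3 counts, the limit that a count of 0 allows, already exceed the total of many members. No paired analysis was possible because the sample labels carry no replicate numbers, and nothing ties the numbers 1 to 3 in the column headers to a common culture or batch.

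Members called were 0 in each treatment comparison in cells, except 1 after LPS without a filter (mir-7036b, log2 5.45, edgeR adjusted p = 0.007524) and 1 after IL-10 by library totals alone or without a filter (mir-7067, -1.004 and -0.90), and 0 in each treatment comparison in EVs under every alternative run. In control EVs against control cells the 5 calls became 16 without a filter and 2 to 5 when 1 library was left out, where 4 to 12 members were tested. Leaving out 1 library, the log2 difference of mir-6979 ran from 0 (without control EV library 2) to 8.48, and that of mir-7012 from -3.88 (without control EV library 3) to 6.84. The test of IL-10 effects in EVs minus cells gave 1 call with DESeq2.

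Over all precursors, calls differed by over 1.5 times in these cases. LPS in cells gave 83 (54 higher), 97 with DESeq2's size factors (50 higher) and 131 by library totals alone (30 higher). LPS in EVs gave 13, from 0 without LPS EV library 2 to 17 with DESeq2, and TGF-β in EVs 3, from 0 to 5. IL-10 in cells gave 20, and 5 without control cell library 1. Control EVs against control cells gave 108, 225 by library totals alone and 68 without control cell library 2. The LPS effect in EVs minus that in cells gave 17, and 13 to 63 over the alternatives, and those of IL-10 and TGF-β gave 0, and up to 8 and 12 with DESeq2.

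The summed share without mir-6236 and mir-6240 in the total was 1.25%, 0.360%, 1.79% and 1.58% in control, LPS, IL-10 and TGF-β EVs. Without mir-7067 it was 0.0261%, 0.0268%, 0.0199% and 0.0216% in the cell groups in the same order, and without mir-7070 as well, 0.0254%, 0.0260%, 0.0192% and 0.0202%. Members per library averaged 38.75 in cells and 15.08 in EVs. At 2 or more counts the means were 15.9 and 7.75, and at equal depth 4.15 in cells. At equal depth outside mir-6236 and mir-6240 they were 0.6094 and 9.77.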
